A study of Mus musculus with 6 samples.

Results

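A set of 10 genes of centriole duplication was followed in dividing and resting cells of the growing mouse liver: Plk4, Stil, Sass6, Cenpj, Cep152, Cep192, Cep135, Cep63, Cep295 and Cep128. They were taken as a named set, through every probe set whose platform annotation gives that single symbol, and all 10 were measured, by 13 probe sets of the 35512 in the value table. After 1 probe set was kept per gene, they made up 10 of 19938 genes. The cells came from the livers of 3 weaned CyclinB1-GFP transgenic mice, 3.5 weeks of age, which carry a green fluorescent reporter named after the mitotic cyclin B1. Cell sorting by fluorescence gave a GFP-positive fraction, called replicating in the labels, and a GFP-negative fraction, called quiescent, and both fractions carried the transgene and received no other treatment named there. The promoter of the transgene is not given in the sources used here. Each fraction of each liver gave 1 Affymetrix array from 10 ng of amplified total RNA, so there were 3 arrays per group.

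A centriole is a short barrel of microtubules, and a pair of them forms the core of the centrosome, which organises the poles of the mitotic spindle. Once per cell cycle, as DNA is replicated, a new centriole grows from the side of each old one. The scaffold proteins CEP192, CEP152 and CEP63 hold the kinase PLK4 on the old centriole, PLK4 binds and phosphorylates STIL, and STIL brings in SAS-6, which builds the cartwheel that gives the new centriole its symmetry. In cultured cells STIL and SAS-6 are destroyed as mitosis ends and accumulate again in the next cycle, while scaffold proteins persist. Young hepatocytes still divide, and many become polyploid, with more than the usual number of chromosome sets and of centrosomes.

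Values are log2 of the RMA intensity. RMA is a procedure that corrects background, normalizes between arrays and sums up the probes of a probe set. Group values are given as mean ± SD over n = 3 arrays, and a difference is the GFP-positive mean less the GFP-negative one, with the standard error and adjusted p from limma, corrected by Benjamini-Hochberg over all 19938 genes. A gene rose if its adjusted p was below 0.05 with a positive difference, and fell if it was below 0.05 with a negative one. Median log2 intensities of the arrays lay between 4.60 and 4.74, and no detection calls were used here. Where a group's mean lay below these medians, a fold is therefore given as a lower bound. For this bound, each value that fell short of its array's median was set to that median. The bound allows for low signal only and not for the spread between arrays, so the 95% interval of a difference can reach below it. Probe sets differ in response, so levels are not compared between genes. Arrays of mixed RNA cannot tell fewer cells expressing a gene from less RNA per cell.

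Of the 10 genes, 6 rose in GFP-positive cells and none fell. The 6 were Plk4, Sass6, Stil, Cep128, Cep295 and Cep192, with log2 differences from 1.25 to 2.76, against 1.55% of all genes that rose and 0.115% that fell. The other 4, Cenpj, Cep135, Cep152 and Cep63, had differences from 0.16 to 0.57 and did not pass. The median difference of the 10 genes was 1.27, against -0.03 over all genes tested. In 9 of the 10 genes every GFP-positive value lay above every GFP-negative value, as it did in 6.82% of all genes, and Cep63 was the exception. These counts describe a set of genes named with earlier results of these data known.

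**Figure D1:**
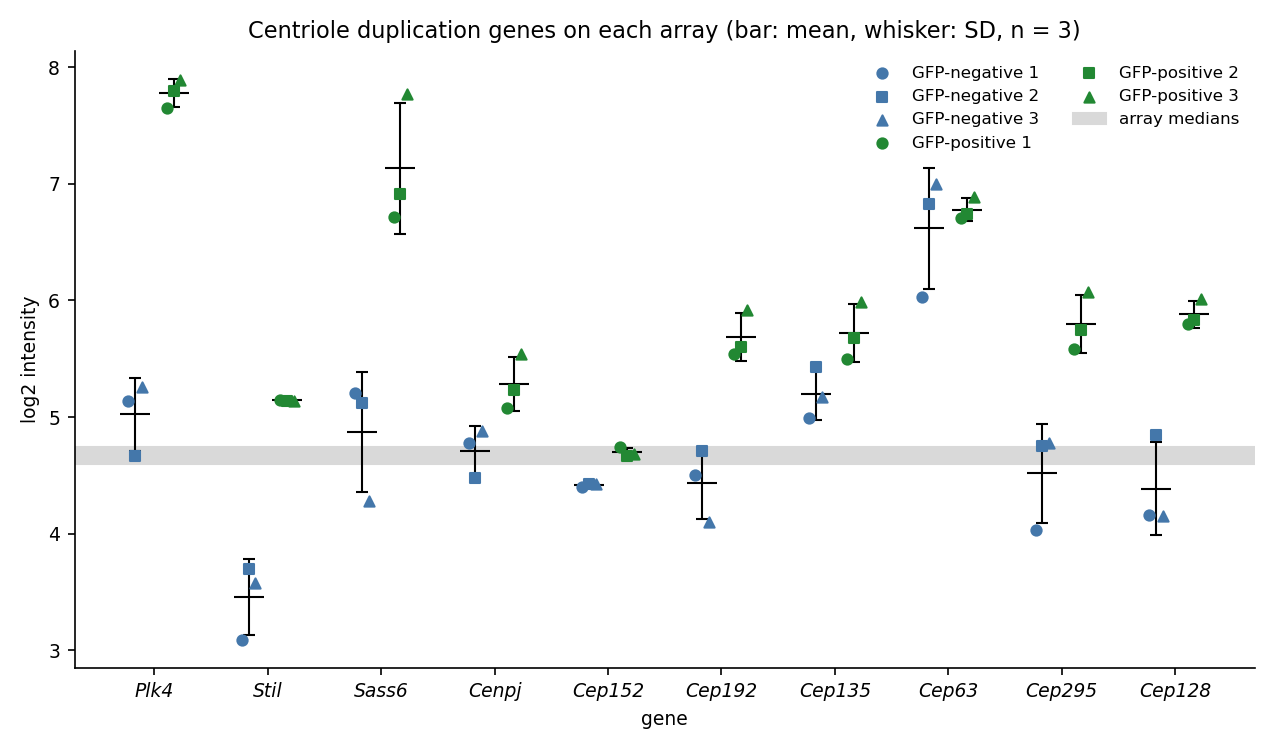
Log2 intensity (vertical axis) of the 10 centriole duplication genes (horizontal axis) on each of the 3 GFP-negative (blue) and 3 GFP-positive (green) arrays, with the marker shape giving the replicate number, a bar for the mean and a whisker for the SD. The grey band spans the array medians from 4.60 to 4.74, and the groups are clear of each other in every gene but Cep63.

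The promoters of Plk4, Stil and Sass6, whose rises held in all 18 alternative settings tried, are shown together with that of Cep152, a gene of the set that did not pass, to show how matches vary between members. The windows run from 250 bases before to 50 bases after the RefSeq start, 5′ to 3′ on the strand of the gene, in GRCm38.p6. Capitals mark matches to 3 motifs on either strand: the E2F-like word TTCCCGC with its variant TTCGCGC, and TTGCCGC with its variant TTGGCGC; the CHR-like words TTTGAA and TTCGAA, known from promoters of late cell cycle genes; and the NF-Y-like word CCAAT. No match of one motif overlapped a match of another in these windows.
Plk4 (chr3:40799701-40800000, plus strand): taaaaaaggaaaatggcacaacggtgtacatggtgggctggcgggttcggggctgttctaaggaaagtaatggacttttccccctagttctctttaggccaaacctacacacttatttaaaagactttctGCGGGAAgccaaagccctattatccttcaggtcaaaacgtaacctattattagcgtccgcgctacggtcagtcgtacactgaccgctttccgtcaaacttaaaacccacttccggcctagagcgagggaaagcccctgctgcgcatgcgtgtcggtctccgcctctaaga
Stil (chr4:114999868-115000167, plus strand): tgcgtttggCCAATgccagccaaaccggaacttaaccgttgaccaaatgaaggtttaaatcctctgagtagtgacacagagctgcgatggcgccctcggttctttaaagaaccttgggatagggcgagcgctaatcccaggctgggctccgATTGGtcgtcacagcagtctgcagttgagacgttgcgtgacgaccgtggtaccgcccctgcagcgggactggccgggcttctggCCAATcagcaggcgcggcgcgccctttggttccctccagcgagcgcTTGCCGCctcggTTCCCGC
Sass6 (chr3:116594708-116595007, plus strand): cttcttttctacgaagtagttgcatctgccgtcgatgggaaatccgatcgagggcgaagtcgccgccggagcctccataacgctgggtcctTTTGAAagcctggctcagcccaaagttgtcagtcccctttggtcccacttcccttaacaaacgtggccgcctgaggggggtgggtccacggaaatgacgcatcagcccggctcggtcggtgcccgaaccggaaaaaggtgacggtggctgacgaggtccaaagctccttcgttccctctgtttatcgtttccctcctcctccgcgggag
Cep152 (chr2:125625064-125625363, minus strand): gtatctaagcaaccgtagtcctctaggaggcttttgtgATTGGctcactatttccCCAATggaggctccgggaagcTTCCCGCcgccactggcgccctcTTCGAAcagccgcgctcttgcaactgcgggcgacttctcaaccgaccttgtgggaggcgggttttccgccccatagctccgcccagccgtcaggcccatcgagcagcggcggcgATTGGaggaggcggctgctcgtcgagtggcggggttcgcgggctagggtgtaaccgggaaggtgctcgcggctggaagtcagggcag

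Plk4 (probe set 10491805), the kinase that starts duplication, had the largest difference of the set. Its log2 intensity was 5.14, 4.67 and 5.26 in GFP-negative cells of replicates 1, 2 and 3 and 7.65, 7.80 and 7.89 in GFP-positive cells. The lowest GFP-positive value thus stood 2.40 above the highest GFP-negative one. Plk4 was 6.77-fold higher in GFP-positive cells, a log2 difference of 2.76 ± 0.18 (adjusted p = 1.8e-05), which was number 64 of all 19938 genes in order of difference. Between arrays of the same replicate number it was 2.51, 3.13 and 2.63.

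Sass6 (probe set 10495574) encodes the protein from which the cartwheel is assembled. In GFP-negative cells it stood at 5.21, 5.12 and 4.28, and in GFP-positive cells at 6.72, 6.91 and 7.77, so that both groups varied more than for Plk4 and did not overlap. Replicate 3 held both the lowest GFP-negative and the highest GFP-positive value. Its log2 difference was 2.27 ± 0.31, or 4.81-fold (adjusted p = 0.0038), with differences of 1.51, 1.79 and 3.49 in replicates 1, 2 and 3.

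Stil (probe set 10507112), the partner of PLK4 that recruits SAS-6, was nearly the same on the 3 GFP-positive arrays, at 5.15, 5.14 and 5.14. The GFP-negative arrays gave 3.09, 3.70 and 3.58, all below the array medians. Stil was at least 1.4-fold higher by the bound, and the measured log2 difference was 1.69 ± 0.17 (adjusted p = 5.3e-04).

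Cep135 (probe set 10522627) encodes the cartwheel protein that links the hub to the microtubule wall, and it did not pass. It stood at 4.99, 5.43 and 5.17 on the GFP-negative arrays and at 5.50, 5.68 and 5.99 on the GFP-positive arrays. The groups were only 0.07 apart at their nearest values. The difference was 0.53 ± 0.18, with a 95% interval from 0.13 to 0.92 before correction for the number of genes (adjusted p = 0.33).

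Not all of the 3 scaffold genes that place PLK4 on the old centriole passed, and differences between these genes were not tested. Cep192 (probe set 10456439), which also recruits pericentriolar material, rose: it was 4.50, 4.71 and 4.10 on the GFP-negative arrays and 5.54, 5.60 and 5.92 on the GFP-positive arrays, a log2 difference of 1.25 ± 0.19 (adjusted p = 0.0069) and at least 1.98-fold. Another pair of probe sets is annotated to Cep192 alone. Probe set 10456490 stood at 3.38, 2.98 and 2.57 against 5.01, 4.91 and 4.69, a measured difference of 1.89 ± 0.22 (adjusted p = 0.016 over all probe sets). Its GFP-negative values all lay below the array medians, and by the bound it was at least 1.16-fold higher. Probe set 10456488 lay below the array medians on all arrays, between 1.59 and 2.89, and its groups overlapped (0.50 ± 0.28, adjusted p = 0.77).

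Cep152 (probe set 10487109), the scaffold to which PLK4 is handed over, had narrow groups a short distance apart. Its values were 4.40, 4.43 and 4.43 on the GFP-negative arrays and 4.74, 4.67 and 4.68 on the GFP-positive arrays. The groups did not overlap, and the difference was 0.28 ± 0.13 (95% interval from -0.01 to 0.56, adjusted p = 0.58). Only 1 of its 6 values exceeded its array's median, so this probe set says little about the level of Cep152.

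Cep63 (probe set 10596119), the binding partner of CEP152, was well above the array medians on every array and overlapped between the groups. It read 6.03, 6.83 and 7.00 on the GFP-negative arrays and 6.71, 6.74 and 6.89 on the GFP-positive arrays. GFP-negative 1 was the low value; replicates 2 and 3 had slightly lower GFP-positive values than GFP-negative ones (-0.09 and -0.11). The difference was 0.16 ± 0.23 (95% interval from -0.37 to 0.68, adjusted p = 0.93), and without GFP-negative 1 it was -0.13. A second probe set, 10596117, ranged from 4.20 to 4.50, below the array medians on all arrays, with a difference of -0.10 ± 0.13 (adjusted p = 0.93 over all probe sets).

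**Figure D2:**
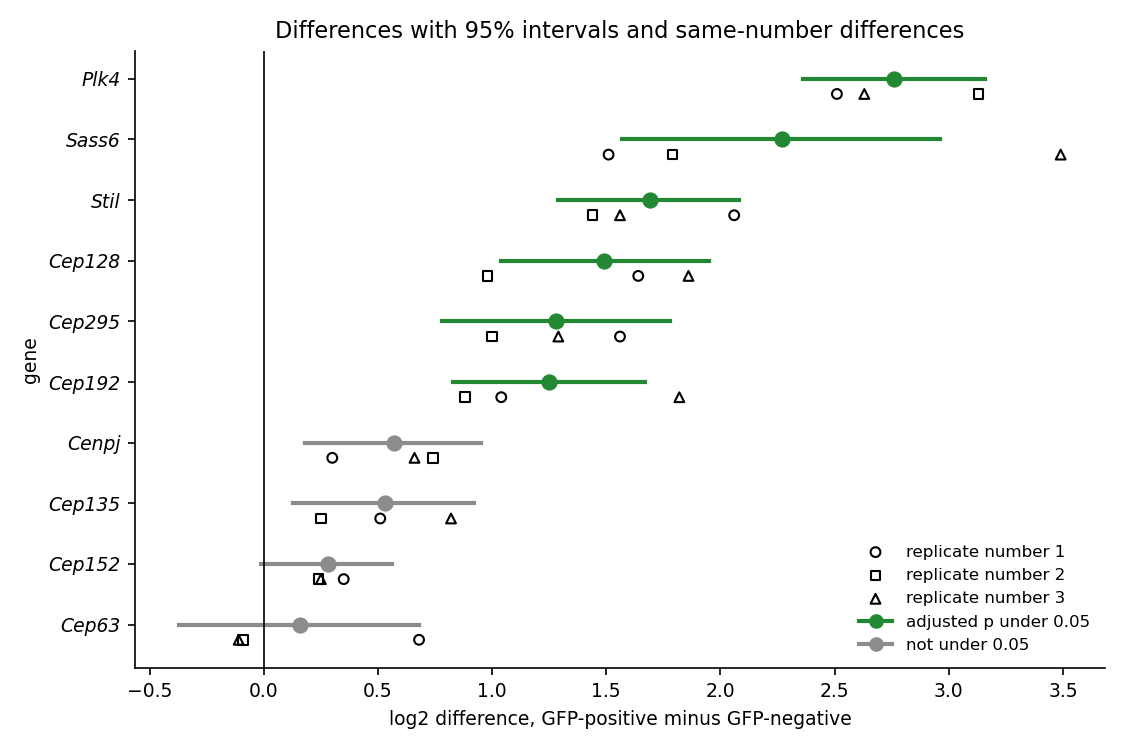
Log2 difference, GFP-positive minus GFP-negative (horizontal axis), of each centriole duplication gene (vertical axis, ordered by size), as the limma estimate (filled circle) with its 95% interval (line) and the differences between arrays of the same replicate number (open symbols). The 6 risen genes (green) lie at 1.25 or more, the other 4 (grey) at 0.57 or less, and Plk4 leads at 2.76.

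Of the remaining genes of the set, Cep295 and Cep128 rose and Cenpj did not pass. Cep295 (probe set 10591035) is needed to turn a new centriole into one that can organise microtubules. It was 4.03, 4.75 and 4.78 on the GFP-negative arrays and 5.58, 5.75 and 6.07 on the GFP-positive arrays, at least 2.11-fold higher, with a measured log2 difference of 1.28 ± 0.22 (adjusted p = 0.018). This was the weakest of the 6 calls: the adjusted p was 0.059 without GFP-positive 2 and 0.085 without GFP-positive 3, with a difference of 1.31 and 1.15, and it ran from 0.0041 to 0.13 over 18 alternatives.

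Cep128 (probe set 10401852) encodes a protein of the subdistal appendages, which mark the older centriole. Its GFP-negative values were 4.16, 4.85 and 4.15 and its GFP-positive values 5.80, 5.83 and 6.01, so the positive arrays were close together and GFP-negative 2 stood above the other two. Cep128 was at least 2.2-fold higher, with a measured log2 difference of 1.49 ± 0.20 (adjusted p = 0.0034).

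Cenpj (probe set 10420320) encodes CPAP, a tubulin-binding protein that sets centriole length. It stood at 4.78, 4.48 and 4.88 on the GFP-negative arrays and at 5.08, 5.23 and 5.54 on the GFP-positive arrays. The groups were 0.20 apart at their nearest values, and the difference of 0.57 ± 0.17 did not pass (95% interval from 0.18 to 0.95, adjusted p = 0.24).

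The same-number differences separated the risen genes from the others. In the 6 risen genes they ran from 0.88 (Cep192, replicate 2) to 3.49 (Sass6, replicate 3), and in the other 4 genes from -0.11 (Cep63, replicate 3) to 0.82 (Cep135, replicate 3). Medians over the 10 genes were 1.28, 0.93 and 1.43 for replicates 1, 2 and 3. The split repeats what the calls say of the same arrays and is a description. Every probe set was also tested alone and adjusted over 35512, where 0.85% rose. There the main probe set of Cep192 (adjusted p = 0.055) and that of Cep295 (adjusted p = 0.11) did not pass. Probe set 10456490 of Cep192 did pass (adjusted p = 0.016), and Sass6 was at the threshold (adjusted p = 0.0499). Over 18 alternatives the adjusted p ran from 0.0033 to 0.08 for Cep192 and from 0.0031 to 0.0499 for Sass6. When both arrays of 1 replicate number were left out, leaving 2 arrays per group, 3 genes passed without number 1 and 3 without number 3, in each case Plk4, Stil and Sass6, while 5 passed without number 2.

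Promoter windows like those shown above for Plk4, Stil, Sass6 and Cep152 were found in RefSeq for 9 of the 10 genes, the other being Cep192. An E2F-like word occurred in 6 of the 9 (66.7%), against 9.57% of all 32851 RefSeq windows of 300 bases. The 6 were Plk4, Stil, Cep152, Cep63, Cep295 and Cep128, while Sass6, which rose, has none in its window. Of these 6, Cep152 and Cep63 did not pass, and the probe set of Cep152 lay near or below the array medians. CHR-like words were found in 3 windows (33.3%, against 19.2% of all), those of Sass6, Cep152 and Cep295. The NF-Y-like word was found in 4 (44.4%, against 37.4%), those of Stil, Cep152, Cep135 and Cep295, with 3 matches each in Stil and Cep152. In Plk4 the match lies 120 bases before the start, in Stil the E2F-like words lie 31 and 43 bases after it, and in Sass6 the CHR-like word lies 159 bases before it, each counted to the left end of the match. The window of Cenpj holds none of the 3 motifs. A match describes the letters of the reference only, no binding was measured, and the windows were not matched for base composition.

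**Figure D3:**
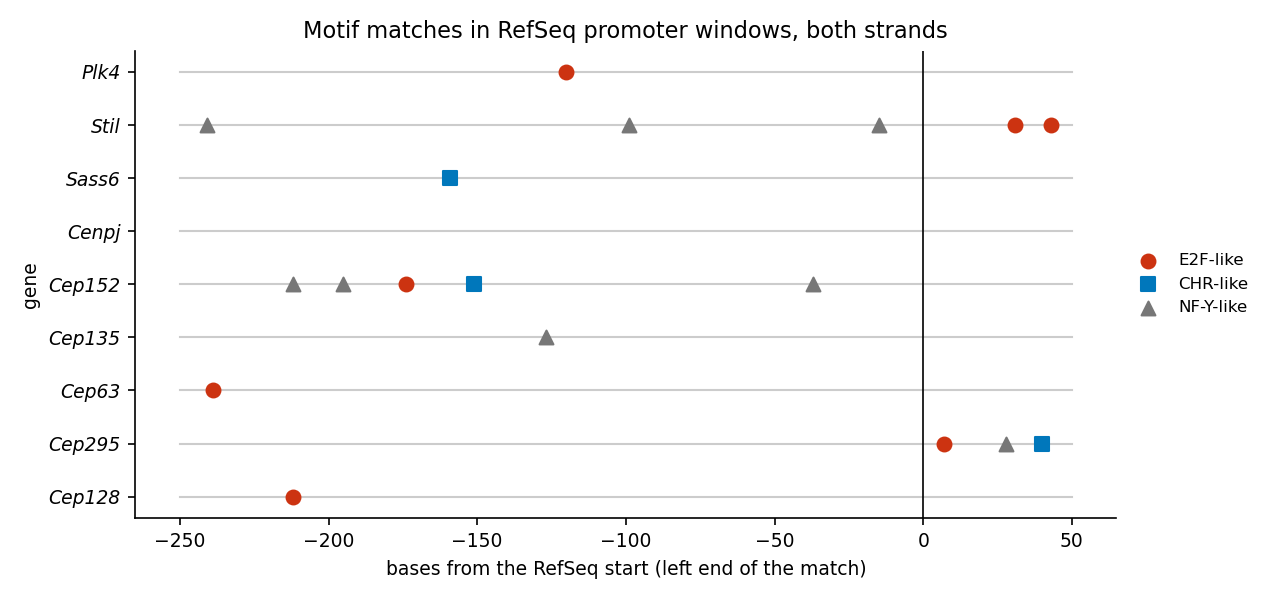
Position of motif matches (horizontal axis, bases from the RefSeq start, negative before it) in the promoter windows of 9 centriole duplication genes (vertical axis), with circles for E2F-like, squares for CHR-like and triangles for NF-Y-like words on either strand. The windows of Cep152 and Cep295 hold matches to all 3 motifs, and that of Cenpj holds none.

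Beyond the 10 genes, 5 lists of other centriole and centrosome genes were compared in the same fit, and 13 of their 88 measured genes rose and none fell (median difference 0.18), beside the 1.55% of all genes that rose. Leaving out arrays reduced the count of 13: it was 5 when GFP-negative 1 or GFP-positive 3 was left out, 8 when GFP-negative 3 was and 7 when GFP-positive 2 was, and 3, 7 and 3 without both arrays of number 1, 2 and 3. It was 4 with all probe sets tested alone and 7 with a pseudocount of 16. Among 34 genes that assist centriole assembly, 7 rose, and the median was 0.28. They were led by Hyls1, a centriole protein needed for cilia (4.60 ± 0.14 in the negative and 5.84 ± 0.18 in the positive group, difference 1.24 ± 0.15, adjusted p = 0.0018), and Ccdc14, which encodes a protein of centriolar satellites and had a GFP-negative mean under the array medians (3.71 ± 0.31 against 4.89 ± 0.37, measured difference 1.19 ± 0.22, adjusted p = 0.026). Leaving out GFP-negative 1 reduced the count of 7 to 1, and it was 4 without GFP-negative 3 and 2 when GFP-positive 2 or 3 was left out. It was 0, 3 and 0 without both arrays of number 1, 2 and 3, 1 with all probe sets tested alone, and 3 with the pseudocount.

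Of 9 genes of the linker between centrioles and of their disengagement, 3 rose (median 0.43), beside 1.55% of all genes. Sgo1, the protector of sister chromatid cohesion, went from 4.10 ± 0.49 to 7.27 ± 0.59 (measured difference 3.17 ± 0.31, adjusted p = 4.0e-04), and Nek2, the kinase that dissolves the linker, from 5.43 ± 0.05 to 7.83 ± 0.45 (2.40 ± 0.21, adjusted p = 1.7e-04). Of 14 genes of the pericentriolar material and the gamma-tubulin complexes, Cdk5rap2, which activates those complexes, rose and no other passed (5.40 ± 0.15 against 6.66 ± 0.29, difference 1.26 ± 0.18, adjusted p = 0.0043; list median 0.26). Without both arrays of number 1, and without both of number 3, this list had 0 calls. None of 14 appendage genes passed (median 0.10), and the largest difference was that of Odf2, 0.74 ± 0.20 (adjusted p = 0.16). Cep128, a subdistal appendage gene among the 10, thus rose while no gene of the appendage list did; without GFP-negative 2, however, 2 of that list passed.

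Genes that control the amount of centriole proteins, or report centrosome loss, rose in 2 of 17 cases, and none fell (median 0.04). Over all genes, 1.55% rose. Ccnf, the F-box protein gene cyclin F, whose product marks the centriole cap protein CP110 for destruction, rose from 4.58 ± 0.36 to 5.89 ± 0.36 (measured difference 1.32 ± 0.23, adjusted p = 0.017). Trim37, a ubiquitin ligase gene that restrains centrosome-like assemblies, rose by less (0.72 ± 0.14, adjusted p = 0.039, but adjusted p = 0.092 with the replicate number as a block). This count of 2 fell to 0 when GFP-negative 1, GFP-negative 2 or GFP-positive 3 was left out, and to 1 when GFP-negative 3 or GFP-positive 1 was. Without both arrays of number 1, 2 and 3 it was 0, 0 and 1. With all probe sets tested alone it was 0. It was 1 with the replicate block, median centring, an intensity trend in the fit or a pseudocount of 16.

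Plk4 belongs to the Polo kinase family, whose members were measured on the same arrays. Plk1, the mitotic member, stood at 4.68 ± 0.34 in the negative and 7.84 ± 0.55 in the positive group (difference 3.16 ± 0.27, adjusted p = 1.5e-04). Differences of the others were 0.20 ± 0.17 for Plk2, -0.20 ± 0.27 for Plk3 and -0.13 ± 0.23 for Plk5, and none of these 3 passed (adjusted p = 0.85, 0.92 and 0.94). The means of Plk2 (4.06 and 4.26) and Plk5 (4.17 and 4.04) lay below the array medians in both groups, so their differences say little. Among 12 Aurora and Polo kinases with their partners, 8 rose (median 2.40), led by Aurka (3.79 ± 0.15) and Tpx2 (measured difference 3.63 ± 0.17). The GFP-negative mean of Tpx2, 4.56, lay below the array medians. For comparison, 10 of 20 genes of G1/S and replication rose (median 1.01), and 20 of 20 genes of G2/M did (median 3.82, differences from 2.12 to 4.71). Over all genes, 1.55% rose. The G1/S count of 10 was 6 with all probe sets tested alone, and 6 without both arrays of number 1 or of number 3. The sort, on a reporter that bears the name of cyclin B1, is not independent of G2/M genes. Plk4 and Sass6 lay within the range of the G2/M genes, and the other 8 centriole duplication genes below it. Differences between these lists were not tested.

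**Figure D4:**
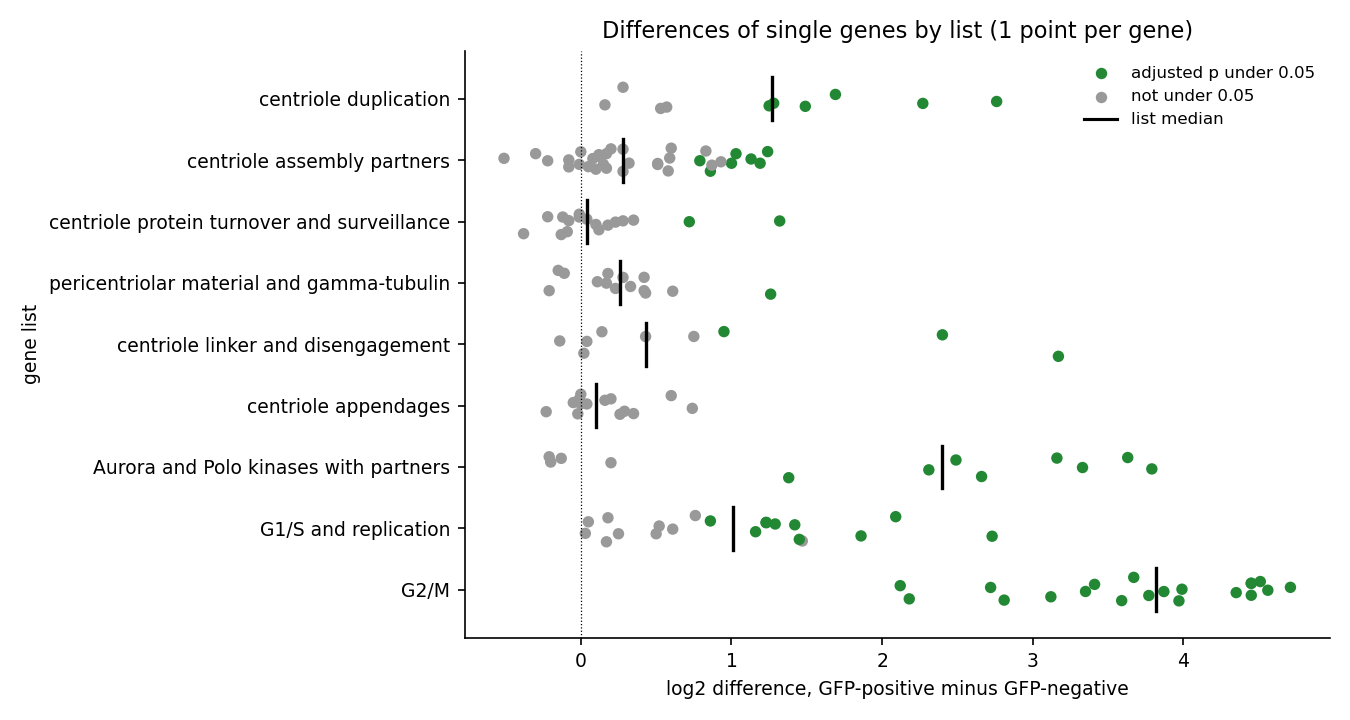
Log2 difference, GFP-positive minus GFP-negative (horizontal axis), of single genes in 9 lists (vertical axis), with green points for an adjusted p below 0.05, grey points for the others and a black bar at each list's median. The centriole duplication genes have their median at 1.27, between those of the G1/S list at 1.01 and the G2/M list at 3.82, and the appendage list holds no green point.

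Hepatocyte markers were high in both fractions: all 11 hepatocyte markers lay above the array medians on all 6 arrays and none passed the test (median difference -0.13). Markers of 8 further cell types were measured, and none of them rose. Clec4f, a Kupffer cell gene, fell (-0.68 ± 0.13, adjusted p = 0.032, or 0.077 with the replicate number as a block). Multiciliated cells also make centrioles in large numbers, from structures called deuterosomes. Of 7 of their markers none passed (median -0.06), 5 lay below the array medians on all arrays, and both the ciliogenesis regulator Foxj1 (4.33 ± 0.13 against 4.23 ± 0.01) and the deuterosome gene Deup1 (4.28 ± 0.21 against 4.38 ± 0.34) had means below those medians in both groups. The mean level of the 9 measured lymphoid markers ran from 3.58 to 3.84 on GFP-negative and from 3.68 to 3.78 on GFP-positive arrays, and that of the 4 measured erythroid markers from 4.94 to 5.52 and from 5.17 to 5.30. For both of these cell types, which also divide, the ranges overlapped. They did not for the 9 endothelial markers (5.10 to 5.34 in the negative and 4.93 to 4.95 in the positive group, median difference -0.19) and the 9 stellate markers (5.32 to 5.41 and 4.91 to 5.16, median -0.20). In each of these lists 3 markers were lower in GFP-positive cells without overlap of the groups, against 6.98% of all genes. None of the endothelial or stellate markers passed the test. Lower values without overlap were not particular to them: 4 of the 11 hepatocyte markers and 2 of the 10 Kupffer cell markers had them too. The part of these cell types in the results for the centriole duplication genes was not tested.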

How the data were processed

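Per the submitters' processing notes, the authors ran RMA, which left a deposited intensity for every probe set on every array. No source used here gives its version, its settings or a genome build. The intensities are on a linear scale (1.62 to 15836, array medians 24.3 to 26.7), so log2 was taken and no further normalization made.

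Of 35512 probe sets, 21789 have 1 gene symbol, 1621 several and 12102 none. Only the first were named, with symbols updated through Entrez identifiers for 21698 (RefSeq table of GRCm38.p6). Where a gene had several probe sets, the one with the highest mean stood for it, which gave 19938 genes, and low values were not filtered. The test was limma 3.58.1 (R 4.3.3), by lmFit and eBayes with the group as its single term, with 4 residual and 5.44 prior degrees of freedom, Benjamini-Hochberg adjustment and a threshold of 0.05, and it was tested on simulated data. Python 3.11.15 served for tables and plots. The number of arrays limits the precision.

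Members and lists were chosen with earlier results of these data known. All 10 members are named. From each other list the 2 called genes with the largest difference are named, or, with none called, the largest, and the G1/S and G2/M lists are given by counts. The other Polo kinases, Foxj1, Deup1 and Clec4f were named after their values were seen.

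Both fractions came from the same 3 livers, per the design text. Replicate numbers were taken to pair them, since the Xist level was 9.03 and 9.80 in the arrays numbered 2 and elsewhere at most 4.04. Eif2s3y, a gene of the Y chromosome, was 1.98 and 2.24 in the arrays numbered 2 and 6.78 to 7.31 elsewhere. By these genes number 2 was female and numbers 1 and 3 were male. Leaving out number 2 thus leaves arrays of a single sex, and an effect of sex was not tested. Deviations from group means correlated by 0.20, 0.06 and -0.05 for numbers 1, 2 and 3. GFP-negative 1 with GFP-positive 3 gave 0.06, and GFP-negative 3 with GFP-positive 1 gave -0.08. For GFP-positive 2 the value was higher with GFP-negative 3 (0.1) than with GFP-negative 2. These correlations do not identify the pairs, so numbers 1 and 3 are not told apart. The fit with the number as a block was an alternative with 2 residual degrees of freedom.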

Additional observations from a re-analysis of the deposited data

How the results depend on the processing

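Under 18 alternatives, Plk4, Stil and Sass6 kept their call, with an adjusted p of at most 0.0015, 0.022 and 0.0499. Cep128 lost it in 2, Cep192 in 3 and Cep295 in 7 of them, and Cenpj, Cep135, Cep152 and Cep63 passed in none. With the replicate block 6 of the 10 genes rose, the same as without it, and over all genes 327 rose and 28 fell, against 310 and 23. Trim37 and Clec4f lost their call under the block, as reported, and among the other genes named with a call none did. Leaving out single arrays gave 5 to 6 risen genes among the 10. Leaving out both arrays of a number gave 3 (number 1 or 3) or 5 (number 2). With a pseudocount of 16, which pulls low values together, the median difference of the 10 genes was 0.86 and 5 rose. Cep63 ranged from -0.13 (without GFP-negative 1) to 0.35 when single arrays were left out, and was -0.10 without both arrays of number 1. Over all genes, 244 to 294 rose and 6 to 29 fell without single arrays, while 193, 282 and 182 rose and 5, 9 and 7 fell without both arrays of number 1, 2 and 3. The count of falls was 6 over all probe sets, 53 with array weights, 13 with median centring and 38 with quantile normalization, and the cause was not tested. Signal near or below the array medians limits Cep152, Stil, the further probe sets of Cep192 and probe set 10596117 of Cep63. In 4 of the 6 risen genes, Stil, Cep192, Cep295 and Cep128, the GFP-negative mean lay below the array medians.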
